A study of Mus musculus with 6 samples.

Results

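In neural stem cells (NSC), 415 broad domains of H3K27me3 were identified, each a single autosomal peak of at least 4000 bp in the peak list of the control NSC library. They were 4.40% of the 9430 peaks on chromosomes 1 to 19 (12982 peaks in all), but held 4614065 of the 10233483 bp under those peaks, or 45.1%. The domains were chosen by their width in the NSC list, so their widths, fold enrichments and q values in that list are given as a description and without a test. Another 4 peaks on chromosome X and 4 on other contigs passed the width limit and were left out, as only the autosomes were described.

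H3K27me3, trimethylation of lysine 27 of histone H3, is laid down by Polycomb repressive complex 2 (PRC2), whose catalytic subunit is Ezh2 or Ezh1. Polycomb repressive complex 1, to which Bmi1 belongs, can be recruited by the mark and compacts chromatin. In neural stem cells the mark is known for keeping silent the developmental transcription factors of other regions, lineages and tissues, and it often covers CpG islands.

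NSC were primary cultures from wild type mouse embryos at E16.5, grown from the cerebral hemispheres. NSC Bmi1Over cultures came from STOPFloxBmi1;NestinCre embryos of the same age, in which Cre under the Nestin promoter, active in neural progenitors, releases a Bmi1 transgene. H3K27me3 was mapped by ChIPSeq, with 1 peak list analysed here per condition, and gene expression by RNASeq, with 2 cultures per condition. ChIP was made on 2 cultures per condition, of which the authors kept 1 each on read number and quality, so no difference between the lists has a replicate check, and the intervals on shares cover counting error only. The study's text gives unequal read totals for these cultures, the highest for an NSC culture, but does not name the ones kept, and the peak lists hold no depth. The NSC list may therefore rest on more reads than the NSC Bmi1Over list, and the part of depth in the differences of width, coverage and number of pieces between the lists was not tested. The smallest fold enrichment of an autosomal peak was 3.52 in NSC and 4.03 in NSC Bmi1Over.

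Between 18112100 and 61353076 reads were counted on genes in each RNASeq library. All 10 markers of neural stem cells checked, among them Nes and Sox2, were at 8.17 TPM or more in all 4 libraries (TPM, a level scaled to the library and corrected for gene length). The 6 mesenchymal markers were all under 1 TPM, with summed levels of 0.561 and 0.653 TPM in NSC and 0.581 and 0.427 TPM in NSC Bmi1Over. Of the neuronal markers 6 of 8, of the astrocyte markers 5 of 6 and of the oligodendrocyte lineage markers 5 of 8 reached 1 TPM in every library. The summed levels of the microglial, endothelial and erythroid lists lay between 0.484 and 3.90 TPM. Between the groups, 1 neuronal and 1 astrocyte marker passed edgeR's test, Syt1 as higher and Aldh1l1 as lower in NSC Bmi1Over, and no marker on these lists had its TSS in a domain. Bmi1 itself was at 133.3 and 123.5 CPM (counts scaled to the normalised library size) in NSC and at 118.6 and 112.6 CPM in the libraries labelled NSC Bmi1Over, a log2 fold change of -0.15 ± 0.12 (SE, n = 2 per group, adjusted p = 0.463 in edgeR's quasi-likelihood test). The transgene was thus not visible as a raised Bmi1 count, and the groups are called by their labels.

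To show the DNA under the mark, the start regions of genes on which the results turn are printed, from 250 bases before to 50 bases after the gene start as given by RefSeq on GRCm38.p6, 5′ to 3′ on the gene's strand. Capitals mark CpG dinucleotides. Hand2 lay in the widest domain outside the Hox clusters, Hoxa10 in the most covered domain and Trank1 in the least covered domain for which a gene start region was at hand. Nkx2-1 and Vgll2 were called higher in NSC Bmi1Over. Cdkn2a had the highest level in NSC, and none of the 300 bases shown for it lay in its domain.
Hand2 (chr8:57320733-57321032, plus strand): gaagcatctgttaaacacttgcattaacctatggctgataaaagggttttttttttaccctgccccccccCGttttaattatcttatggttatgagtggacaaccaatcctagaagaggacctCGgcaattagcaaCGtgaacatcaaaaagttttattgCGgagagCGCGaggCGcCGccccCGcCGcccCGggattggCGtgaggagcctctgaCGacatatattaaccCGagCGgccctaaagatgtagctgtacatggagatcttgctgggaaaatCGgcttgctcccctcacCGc
Hoxa10 (chr6:52240805-52241104, minus strand): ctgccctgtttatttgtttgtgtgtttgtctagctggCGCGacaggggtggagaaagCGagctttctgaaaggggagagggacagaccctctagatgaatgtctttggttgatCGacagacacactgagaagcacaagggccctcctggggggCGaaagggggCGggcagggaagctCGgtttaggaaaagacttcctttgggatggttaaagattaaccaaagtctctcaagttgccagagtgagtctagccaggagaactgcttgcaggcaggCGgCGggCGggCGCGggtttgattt
Trank1 (chr9:111311489-111311788, plus strand): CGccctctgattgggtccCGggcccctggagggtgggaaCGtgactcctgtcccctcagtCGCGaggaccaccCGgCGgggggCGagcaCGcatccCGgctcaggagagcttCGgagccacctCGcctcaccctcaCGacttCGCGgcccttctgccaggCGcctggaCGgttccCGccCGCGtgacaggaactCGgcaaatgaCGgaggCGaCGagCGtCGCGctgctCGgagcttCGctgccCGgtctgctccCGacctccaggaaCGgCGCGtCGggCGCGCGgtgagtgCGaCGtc
Nkx2-1 (chr12:56536859-56537158, minus strand): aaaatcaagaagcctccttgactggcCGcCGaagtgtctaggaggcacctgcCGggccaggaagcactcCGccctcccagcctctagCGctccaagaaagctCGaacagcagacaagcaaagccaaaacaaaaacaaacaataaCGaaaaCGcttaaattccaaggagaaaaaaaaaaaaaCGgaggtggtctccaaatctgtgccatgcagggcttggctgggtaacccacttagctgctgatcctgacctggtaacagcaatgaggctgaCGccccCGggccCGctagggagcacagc
Vgll2 (chr10:52022252-52022551, plus strand): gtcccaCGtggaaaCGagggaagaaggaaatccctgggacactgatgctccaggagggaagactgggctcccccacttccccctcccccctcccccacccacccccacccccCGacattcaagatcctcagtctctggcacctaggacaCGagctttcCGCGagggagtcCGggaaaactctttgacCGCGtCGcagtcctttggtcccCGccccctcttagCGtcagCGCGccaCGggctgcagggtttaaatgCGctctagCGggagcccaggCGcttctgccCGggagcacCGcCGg
Cdkn2a (chr4:89294570-89294869, minus strand): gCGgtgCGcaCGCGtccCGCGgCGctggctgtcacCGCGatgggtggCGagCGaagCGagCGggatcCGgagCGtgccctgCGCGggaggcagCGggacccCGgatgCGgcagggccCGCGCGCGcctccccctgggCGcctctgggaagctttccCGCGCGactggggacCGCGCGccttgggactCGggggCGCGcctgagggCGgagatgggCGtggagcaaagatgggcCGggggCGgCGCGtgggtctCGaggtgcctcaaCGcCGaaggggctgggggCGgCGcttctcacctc

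These held 17 CpG in Hand2, 12 in Hoxa10, 40 in Trank1, 12 in Nkx2-1, 21 in Vgll2 and 45 in Cdkn2a. Of the 295 genes in domains, 202 had a start region in the table, with a median of 18 CpG, beside 15 for the 15687 autosomal coding genes in it. The regions of Hand2, Hoxa10, Trank1 and Nkx2-1 lay wholly inside their domains, whereas 47 bases of that of Vgll2 did, as its domain began close to the gene start. The centre of the widest domain without a coding gene start is shown for contrast, and held 1 CpG in 300 bases.
domain near Nfe2l3 (chr6:51188952-51189251, plus strand): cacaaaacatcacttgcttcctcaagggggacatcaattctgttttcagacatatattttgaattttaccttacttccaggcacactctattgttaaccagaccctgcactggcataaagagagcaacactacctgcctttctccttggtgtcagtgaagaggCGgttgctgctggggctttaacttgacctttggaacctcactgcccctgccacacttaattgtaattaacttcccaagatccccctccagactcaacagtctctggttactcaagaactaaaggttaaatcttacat

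The domains spanned 4003 to 142094 bp with a median of 7671 bp, and 151 of them reached 10 kb, 47 reached 20 kb and 4 reached 50 kb. Their fold enrichment in NSC ran from 4.40 to 62.8 with a median of 6.92, beside 4.11 for the 9015 shorter peaks. Wider domains had higher fold enrichments (Spearman's rho 0.674 over 415 domains of 1 library, a description). Just inside the limit lay the domains at Rspo1 (4003 bp), which encodes an R-spondin that enhances Wnt signalling, Trank1 (4005 bp) and Cpm (4025 bp), with fold enrichments of 5.0, 6.19 and 4.77. Just outside it lay a peak of 3951 bp with no coding gene start and peaks of 3941 bp at Crhr1, a receptor for corticotropin-releasing hormone, and at Gm4881, with fold enrichments of 6.76, 6.09 and 5.58. These folds overlapped across the limit. The share of bases under NSC Bmi1Over peaks was 15.0, 6.29 and 16.2% in the 3 inside and 44.6, 17.3 and 21.3% in the 3 outside.

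The 4 widest domains were those of the Hox clusters, the arrays of homeobox genes that pattern the body axis behind the forebrain. The widest covered 142094 bp on chromosome 15 and held the starts of 9 Hoxc genes, followed by 96453 bp over 8 Hoxb genes on chromosome 11, 75156 bp over Evx2 and Hoxd genes on chromosome 2 and 73488 bp over Hoxa genes on chromosome 6. A domain of 44946 bp on chromosome 8 surrounded Hand2, a bHLH factor of heart and limb development, and 1 of 39955 bp on chromosome 14 surrounded Gata4, a zinc finger factor of heart and endoderm. Next came 38512 bp from Hoxa7 to Hoxa11, 37173 bp at Hoxd3 and Hoxd4 and 36247 bp at Dlx5 and Dlx6, homeobox genes of ventral forebrain and craniofacial development. The tenth domain by width, 35929 bp on chromosome 1, lay at Zdbf2, an imprinted gene, and so outside the transcription factor families. The fold enrichments of these 10 domains lay between 8.14 and 10.7.

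Among the 5 domains of highest fold, 2 stood apart. A domain of 6130 bp on chromosome 17 had a fold of 62.8, and a domain of 4311 bp on chromosome 14 at Gm21738 had a fold of 58.3. The first held no coding gene start, but the starts of the noncoding genes Gm26917, Gm42418 and AY036118, and had 97.7 CpG per kb. In the second, 80.7% of the bases were soft-masked as repeats. The next highest folds were 13.5 at Sfi1, a centrosomal gene whose domain was 45.4% soft-masked, and 10.7 at the Hoxa7 to Hoxa11 domain. Over all domains the median soft-masked share was 15.0%. Whether repeat copies set the high folds was not tested. The 5 lowest folds, from 4.40 to 4.64, belonged to domains near Tenm4, at Kirrel2, and near Ap3b1, Aldh1a2 and Casz1, and 4 of these 5 had no coding gene start.

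The domains were found on all 19 autosomes. Chromosome 2 held the most, 48, and chromosome 16 the fewest, 4, while chromosome 19 had the highest density with 0.326 domains per Mb and chromosome 16 the lowest with 0.0407. Domains often lay next to one another, as 153 of 415 were within 10 kb of another domain, and joining domains over such gaps left 326 loci.

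A transcription start site (TSS) of 295 protein-coding genes lay in a domain, 1.42% of the 20807 autosomal coding genes of GENCODE vM21. These genes sat in 263 domains, of which 250 held 1 coding gene and 13 held more. The domains held the starts of 140 long noncoding RNA genes and of 14 microRNA genes. The microRNA genes included the Hox-linked Mir10a, Mir10b, Mir196a-1, Mir196a-2, Mir196b and Mir615, and Mir124a-3, which encodes a microRNA of neurons. In the 211 domains with a single coding gene and its start, the mark reached a median of 3866 bp upstream and 5920 bp downstream of the start, and further downstream than upstream in 152 of them. Of the 295 genes, 133 lay wholly inside a domain. The median length of all 295 was 8867 bp beside 17629 bp for all autosomal coding genes.

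Most of the genes in domains encoded developmental transcription factors. By symbol, 177 of the 295 genes (60.0%) fell in 1 of 17 transcription factor families listed for this work, beside 1.88% of all autosomal coding genes. With signalling, channel and other lists, 195 genes fell in 1 of 30 families. Homeobox and Pax genes alone gave 121 genes of the 185 on autosomes. All 39 Hox genes lay in domains, which were 10 in number. LIM homeobox genes, which specify neuron types, followed with 11 of 12, and their widest domains were at Lmx1b (22759 bp), Lhx4 (22393 bp) and Lhx1 (21264 bp). GATA factors were present with 4 of 5 and Tfap2 factors of neural crest and epidermis with 4 of 5, at Gata4, Gata6 and Gata2 and at Tfap2a, Tfap2c and Tfap2e. Distal-less and Msx genes gave 7 of 9, led by Dlx5, Dlx6 and Msx1, Pax genes 6 of 9, led by Pax9 (28910 bp), Pax2 (24981 bp) and Pax3 (24660 bp), and sine oculis homeobox genes of eye, ear and muscle 4 of 6, among them Six6 (20834 bp) and Six3 (15422 bp). NK homeobox genes gave 9 of 14, with the widest domains at Nkx2-3 (29770 bp), Nkx3-2 and Nkx2-1, and T-box genes of mesoderm 9 of 14, with the widest at Tbx20, Tbx15 and Tbx18. Of 76 other homeobox genes 40 were in domains, among them Evx2 (75156 bp) and Uncx (26158 bp).

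Some families were only partly marked in this way. Of 41 Forkhead genes 15 lay in domains, led by Foxa2 (28419 bp), Foxa1 (24103 bp) and Foxb1 (22504 bp), and of 65 bHLH genes 19, led by Hand2, Sim2 (28498 bp) and Sim1 (26328 bp). Of 14 POU genes 3 lay in domains, and all were Pou4f genes of sensory neurons, Pou4f2, Pou4f1 and Pou4f3. Sox genes, several of which maintain neural stem cells, gave 2 of 18, and Zic, Gli and Sall genes 1 of 14.

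The signalling, adhesion and channel genes in domains were few in number, and their shares are to be read against the 1.42% of all autosomal coding genes. The shares of the Wnt, FGF and ephrin families lay above it, on at most 4 genes each. Of 28 genes for Wnt ligands and secreted inhibitors 4 lay in domains (14.3%), among them Wnt3a, Wnt1 and Dkk1, whose domains of 6425, 5666 and 4207 bp were shorter than the median. Of 20 FGF ligands 2 lay in domains (10.0%). Of 321 solute carriers 4 lay in domains (1.25%), and the 3 widest were at Slc32a1 (11707 bp), the vesicular GABA transporter, Slc6a5 (10626 bp), a glycine transporter, and Slc17a6 (6709 bp), a vesicular glutamate transporter. Ephrins and Eph receptors gave 1 gene of 21 (4.76%), the ephrin ligand Efna5, with a domain of 5324 bp and a fold of 6.19. None of 47 axon guidance genes, 90 cadherins and protocadherins and 39 calcium and sodium channels had a TSS in a domain. Of these lists, 1, 3 and 4 genes had a TSS only in a shorter peak. At a share of 1.42%, few or no genes would lie in domains in lists of this size.

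**Figure D1:**
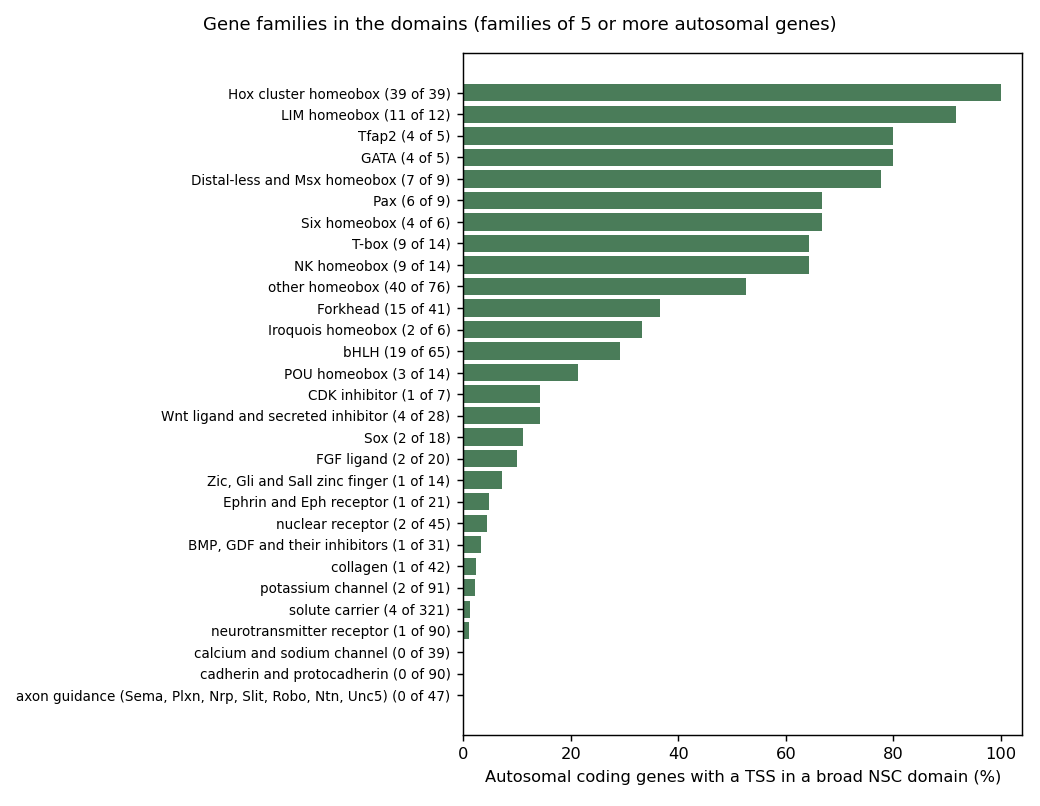
Share of the autosomal protein-coding genes of each family (bars, percent) that have a TSS in a broad NSC H3K27me3 domain, with the counts beside each name. Families of 5 or more autosomal genes are shown, from Hox (39 of 39) down to families with no gene in a domain.

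The other 152 domains held no coding TSS. They were narrower (median 6321 bp against 10354 bp) and had lower folds (6.06 against 7.44) than the 263 with a coding TSS, both measures of the list that chose them. Of these 152, 63 lay in a gene body, 47 within 5 kb of a coding TSS, 90 within 10 kb of another domain and 26 held the TSS of a long noncoding RNA, and these counts overlap. The widest, 19673 bp on chromosome 6 (chr6:51179266-51198938), was 233732 bp from the nearest coding TSS, that of Nfe2l3, and is the domain whose centre is printed above. The next were 17001 bp near Hoxb13, 16396 bp near Tfap2a, 15894 bp near Onecut1, 47 bp from its TSS, and 15537 bp near Tbca, 73940 bp from its TSS.

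Domains were rich in CpG. Their median CpG density was 25.9 per kb, beside 10.9 in their flanks of the same length, 10.5 in the shorter peaks and 7.25 in 598670 tiles of 4000 bp of the autosomes. A CpG island (a window of 200 bp with at least 50% GC and an observed to expected CpG ratio of at least 0.6) was present in 88.4% of the domains (95% Wilson interval 85.0 to 91.2). Of the shorter peaks, whose median width was 385 bp, 15.4% held an island. Since a longer region holds an island more often, windows of 4000 bp were also compared, and an island was present in 82.4% of those at the centre of a domain, 44.5% of those centred on a shorter peak and 19.7% of the tiles. The windows on shorter peaks consist mostly of the sequence around the peak. With a stricter rule (500 bp, 55% GC, ratio 0.65) these shares were 65.5%, 24.5% and 3.24%. Domains with a coding TSS had an island in their central 4000 bp in 95.8% of cases and 29.8 CpG per kb, and domains without one in 59.2% of cases and 14.3 CpG per kb.

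To ask how the NSC domains appeared in NSC Bmi1Over, the share of each domain under the 5790 autosomal NSC Bmi1Over peaks was measured, which the choice of domains did not use. All 415 domains were touched by at least 1 NSC Bmi1Over peak (100.0%, 95% Wilson interval 99.1 to 100.0), against 2028 of the 9015 shorter peaks (22.5%, interval 21.6 to 23.4). Wide regions meet a peak more often than narrow ones, so the covered share of bases was measured as well, and it was 67.5% in domains and 16.9% in shorter peaks. Of the 459 shorter peaks of 2000 to 4000 bp, the nearest in width to the domains, 89.1% were touched, and 32.1% of their bases were covered. The domains held 69.5% of all autosomal bases under NSC Bmi1Over peaks and 43.5% of the peaks (2521).

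The median domain was covered over 62.7% of its bases (95% interval of the median 59.3 to 64.9), with a range of 4.36 to 99.8%. Coverage was under 25% in 27 domains, from 25 to 50% in 110, from 50 to 75% in 175 and at least 75% in 103. The NSC Bmi1Over peaks inside were short pieces, with a median of 5 per domain, and 244 domains held 5 or more while 11 held 1. The widest single piece took a median of 23.7% of its domain. In the NSC Bmi1Over list, 139 autosomal peaks reached 4000 bp and the widest was 15320 bp, beside 415 and 142094 bp in NSC. The 142094 bp Hoxc domain was met by 45 separate peaks that covered 88.5% of it, the widest piece being 11934 bp. When NSC Bmi1Over peaks were joined over gaps of up to 1000 bp, the median coverage rose to 83.8%. When instead NSC peaks were joined over the same gaps before the width limit was applied, 695 regions passed and their median coverage fell to 29.8%.

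Coverage rose with width and with fold. The median was 46.2% in the 140 domains of 4 to 6 kb, 58.6% in those of 6 to 10 kb, 70.7% in those of 10 to 20 kb and 81.2% in the 47 domains of 20 kb or more. In 4 groups of nearly equal size, from the lowest to the highest fold, it was 39.2%, 53.9%, 66.2% and 78.2%. Across the 415 domains Spearman's rho of coverage was 0.606 with width, 0.758 with fold and -0.0759 with CpG density, given as a description, as domains share their libraries. The 10 widest domains were covered between 81.9 and 93.9%.

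**Figure D2:**
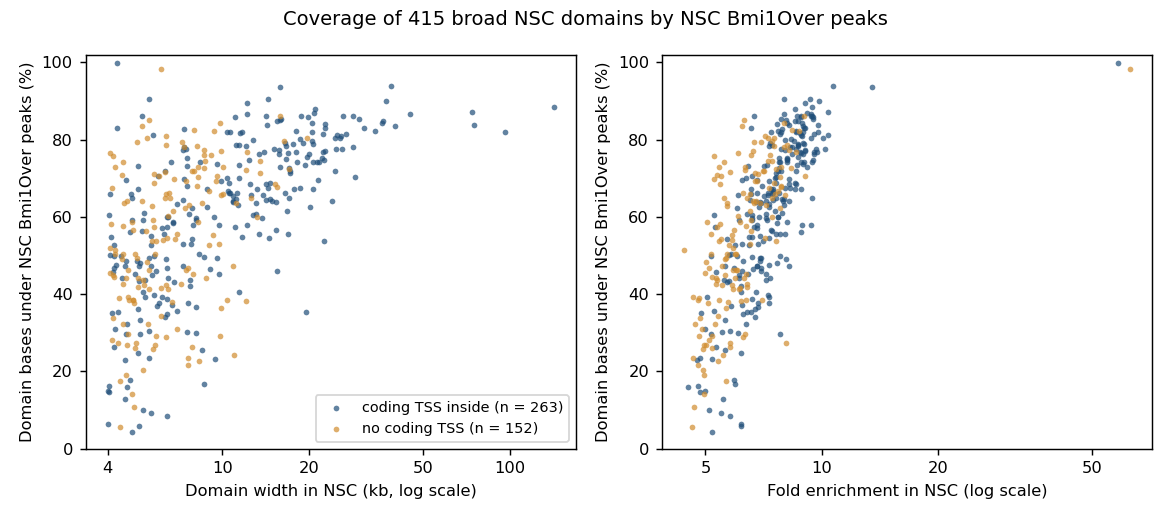
Share of each of the 415 domains under NSC Bmi1Over peaks (y axis, percent of its bases) against its width in kb (left) and its fold enrichment in NSC (right), both on log scales. Each point is a domain, coloured by whether it holds a coding TSS; coverage is low and scattered near 4 kb and lies between 81.9 and 93.9% in the 10 widest.

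The most covered domains were the 2 of highest fold, at Gm21738 (99.8%) and on chromosome 17 (98.3%), followed by Hoxa7 to Hoxa11 (93.9%), Sfi1 (93.5%) and Ikzf3 (90.5%), which encodes a lymphoid zinc finger factor. No domain was without an NSC Bmi1Over peak, so the 5 least covered domains are given in place of uncovered ones, a choice made after the values were seen. They were at Nrn1 (4.36%), which encodes the neurite growth factor neuritin, near Ap3b1 (5.60%), at A530084C06Rik (5.84%), at Trank1 (6.29%) and at Kiss1r and R3hdm4 (8.43%), Kiss1r being the kisspeptin receptor. All 5 were between 4005 and 6414 bp wide. The start region of Trank1 printed above, with 40 CpG, thus lay in a domain of low coverage, and that of Hoxa10, with 12, in a domain of high coverage.

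Coverage by family is given as a description, without a test, and the families' domains also differed in width. The median over all domains that held a start of the family was 86.4% for the 10 Hox domains, 78.4% for NK homeobox, 78.1% for Tfap2, 77.7% for GATA, 73.6% for Pax, 70.0% for LIM homeobox, 68.7% for bHLH, 68.4% for Forkhead and 52.4% for T-box genes. The 2 Sox domains were covered over 74.2 and 86.0% and the 2 Iroquois domains over 16.8 and 29.8%. The median width was 37842.5 bp for the Hox and 6889 bp for the Iroquois domains. The T-box domains ranged from 23.4% at Tbx3 to 84.3% at Tbx15. The Efna5 domain was covered over 40.6%.

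Coverage also varied along the domains. It was 35.1% on average in the outermost 5% at both ends and 65.3% at the centre. Of the 264 coding genes whose gene start lay in a domain, 151 had the start base itself under an NSC Bmi1Over peak (57.2%, 95% Wilson interval 51.2 to 63.0), beside a mean of 66% for the whole of their domains. Among domain bases, 64.0% were covered within 1000 bp of a gene start and 74.8% at 2000 to 5000 bp. The first 500 bp downstream of the start were the least covered of the 20 steps within 5 kb, at 58.1%. In the same direction, stretches of 200 bp with 10 or more CpG were covered over 59.8%, those with 5 to 9 over 73.1%, those with 2 to 4 over 70.6% and those with 0 or 1 over 65.4%. At least 1000 bp from a domain's edge these shares were 62.9%, 77.2%, 77.0% and 73.3%. The part of sequencing or mapping of GC-rich DNA in these shares was not tested. These profiles were chosen after other values of the domains had been seen.

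**Figure D3:**
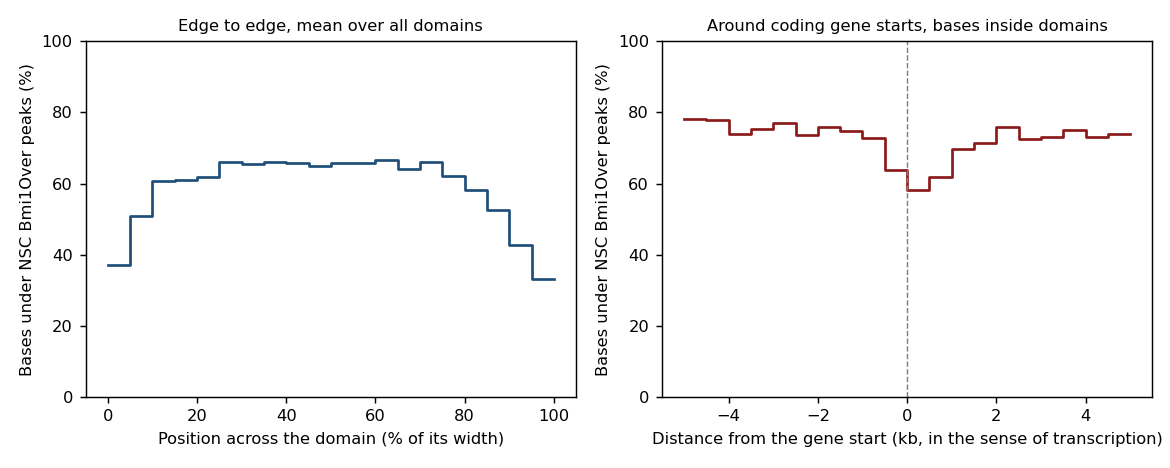
Mean share of domain bases under NSC Bmi1Over peaks (y axis, percent) across the 415 domains scaled to equal width (left) and by distance from the starts of 264 coding genes in steps of 500 bp, counting bases inside domains (right). Coverage falls towards both edges and has a dip at the gene start, to 58.1% in the first 500 bp downstream.

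Genes in domains were mostly silent in NSC. Of the 295 coding genes, 155 in replicate 1 and 159 in replicate 2 had no read, and 42 (14.2%) and 30 (10.2%) were at 1 TPM or more. The median level was 0 TPM in each NSC library, as the middle gene had no read. Of coding genes with a TSS in a shorter NSC peak only, 27% and 25% reached 1 TPM, with medians of 0.230 and 0.193 TPM, and of those without an NSC peak at a TSS 59.3% and 59.1%, with medians of 5.59 and 5.16 TPM. In the libraries labelled NSC Bmi1Over 13.6% and 12.2% of domain genes reached 1 TPM, within the range of the NSC libraries. The 3 classes kept their order in all 4 libraries. A count of 0 allows up to 3 reads, or 0.102 and 0.122 CPM in the NSC libraries, and 107 genes had no read in any library.

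**Figure D4:**
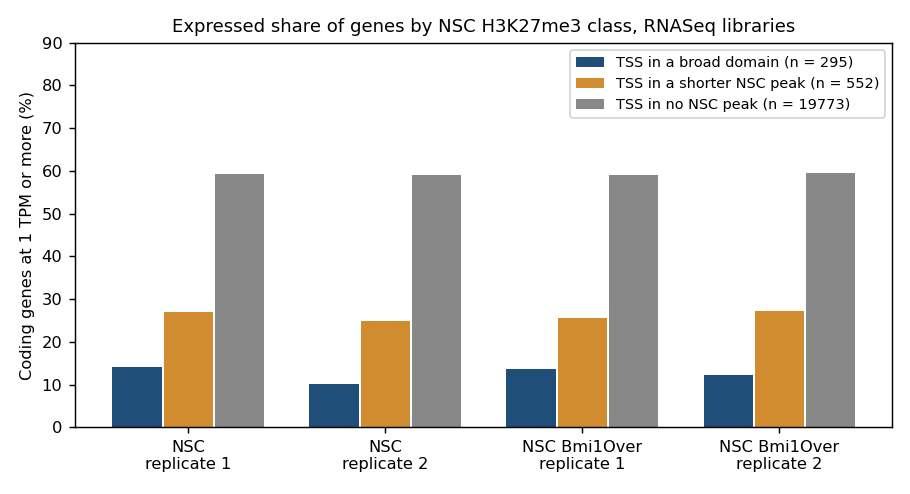
Share of protein-coding genes at 1 TPM or more (bars, percent) in each of the 4 RNASeq libraries, for genes with a TSS in a broad domain, in a shorter NSC peak only, and in no NSC peak. In the NSC libraries the domain genes reached 14.2 and 10.2%, against 59.3 and 59.1% of genes without a peak.

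Levels were lower in wider domains. Across the 295 genes the mean NSC level had a Spearman's rho of -0.330 with domain width and -0.415 with fold, a description across genes. Of the 39 Hox genes, 35 had no read in either NSC library, and the highest count of any Hox gene in any of the 4 libraries was 3 reads. Hand2 had no read in any library, and Gata4 had at most 1 read per library. In domains covered by less than 50% the median NSC level was 0.250 TPM (74 genes), in those covered from 50 to 75% it was 0.0376 TPM (103 genes), and in those covered by 75% or more it was 0 (118 genes).

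A minority of genes were expressed despite a TSS in a domain. The mean NSC level was 1 TPM or more for 34 genes and 10 TPM or more for 9. The highest level belonged to Cdkn2a, which encodes the cell cycle inhibitors p16Ink4a and p19Arf and is repressed by Bmi1 in many cells, with 96.2 and 80.7 TPM in NSC and 62.0 and 46.7 TPM in NSC Bmi1Over. Its domain was 16552 bp wide and 79.0% covered, and held 1 of its 2 annotated transcript starts. The log2 fold change of Cdkn2a, -0.48 ± 0.16 (SE, n = 2 per group), did not pass edgeR's test (adjusted p = 0.116). It passed as lower when all genes with a count were kept (-0.50, adjusted p = 0.0308 in edgeR). The log2 fold change was -0.65 without NSC Bmi1Over replicate 1, -0.40 without NSC replicate 1 and -0.31 without NSC Bmi1Over replicate 2. Nrn1 was at 83.3 and 56.0 TPM in NSC and 33.7 and 43.2 TPM in NSC Bmi1Over, with the least covered domain of all, and its log2 fold change was -0.60 ± 0.20 (adjusted p = 0.117, edgeR). The potassium channel gene Kcnc4 was at 39.5 and 32.9 TPM in NSC and 57.5 and 28.5 TPM in NSC Bmi1Over, and these groups overlapped.

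The other 7 of the 10 highest were R3hdm4, Rnf220, a ubiquitin ligase gene, Pde4b, a cyclic AMP phosphodiesterase gene, Sfi1, Dmrta2, a transcription factor gene of the cortical hem, Rsrc1, a splicing factor gene, and Skap2, an adaptor protein gene, with mean NSC levels from 9.65 to 29.8 TPM. Many of these genes are long and have further starts elsewhere. Of the 10, 8 had an annotated transcript start outside any domain, and a median of 15.1% of the gene lay in its domain. Of the 34 genes at 1 TPM or more 19 (55.9%) had such a start, and of the 261 below 1 TPM 60 (23.0%). The gene start itself lay in a domain for 8 of the 10, for 26 of the 34 (76.5%) and for 238 of the 261 (91.2%). Genes differ in their number of annotated starts, which these shares do not take into account. Rsrc1 has 8 of its 9 starts outside and shares its 20607 bp domain with Shox2, a homeobox gene at 1.38 and 0.315 TPM in NSC. As counts were made per gene, the level of a single start is not known. Dmrta2 and Kcnc4 had all their starts, 1 each, in a domain, Dmrta2 at 13.6 and 13.1 TPM in NSC in a domain of 15455 bp covered over 46.0%.

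To compare the groups, 67 of the 295 domain genes had enough reads to be among the 15521 genes tested with edgeR's quasi-likelihood test. Called at an adjusted p under 0.05 were 3 of them as higher in NSC Bmi1Over (4.48%, beside 2.03% of all genes tested) and 0 as lower (beside 0.122%). At an unadjusted p under 0.05, 15 were higher (22.4%, beside 17.0% of all genes tested) and 6 lower (8.96%, beside 7.22%). DESeq2 called 5 of 43 domain genes with an adjusted p as higher (11.6%, beside 9.71% of all genes) and 0 as lower (beside 1.45%). Some other fits in edgeR gave more calls, both among domain genes and among all genes. When all genes with a count were kept, 13 of 188 domain genes were called higher (6.91%, beside 6.63% of all genes) and 4 lower (2.13%, beside 1.62%). Without NSC replicate 2, 7 of 80 were higher (8.75%, beside 7.34%) and 1 lower (1.25%, beside 1.60%), and without NSC Bmi1Over replicate 1, 6 of 78 were higher (7.69%, beside 11.9%) and 3 lower (3.85%, beside 3.63%). With so few called genes these shares are a description. The median log2 fold change of the 67 genes was 0.26 and that of all genes tested -0.01, given as a description only. With library size alone as the scaling, the median was 0.10. A gene with few reads passes the filter on low counts more easily when it is high in 1 group, so the 67 genes do not stand for all 295. With 2 cultures per group, an exact permutation test of a single gene could not give a two-sided p under 0.333.

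The called genes were transcriptional regulators, all at low levels. Tbx3, a T-box factor of limb, heart and mammary gland, was at 0.441 and 0.112 TPM in NSC and at 1.23 and 1.39 TPM in NSC Bmi1Over. Its log2 fold change was 2.45 ± 0.46 (SE, n = 2 per group, adjusted p = 0.0414 in edgeR), from 23 and 5 reads in NSC and 42 and 163 reads in NSC Bmi1Over. It was 3.72 without NSC replicate 1 and 1.85 without NSC replicate 2, so its size moved with the NSC library used. Its domain (chr5:119670474-119676054) was 5581 bp wide and covered over 23.4%, the least of the T-box domains.

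Nkx2-1, a homeobox factor of ventral forebrain, lung and thyroid, was at 0.537 and 0.419 TPM in NSC and at 1.70 and 1.69 TPM in NSC Bmi1Over. Its log2 fold change was 2.05 ± 0.36 (SE, n = 2 per group, adjusted p = 0.0374 in edgeR), and its domain (chr12:56525484-56540996) was 15513 bp wide and covered over 84.8%. Vgll2, a cofactor of TEAD factors known from skeletal muscle, was at 1.31 and 1.54 TPM in NSC and at 4.34 and 3.8 TPM in NSC Bmi1Over. Its log2 fold change was 1.74 ± 0.32 (SE, n = 2 per group, adjusted p = 0.0407 in edgeR), and its domain (chr10:52022505-52030262) was 7758 bp wide and covered over 52.9%. The domains of these 3 genes ranged from little to largely covered. All 3 calls were lost without NSC Bmi1Over replicate 2, the most deeply sequenced library (adjusted p = 0.0976 for Tbx3, 0.108 for Nkx2-1 and 0.0891 for Vgll2 in edgeR), although the log2 fold changes were then 2.3, 2.01 and 1.81. The calls of Nkx2-1 and Vgll2 were also lost without NSC replicate 1 (adjusted p = 0.0638 and 0.153 in edgeR), with log2 fold changes of 2.19 and 1.58.

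**Figure D5:**
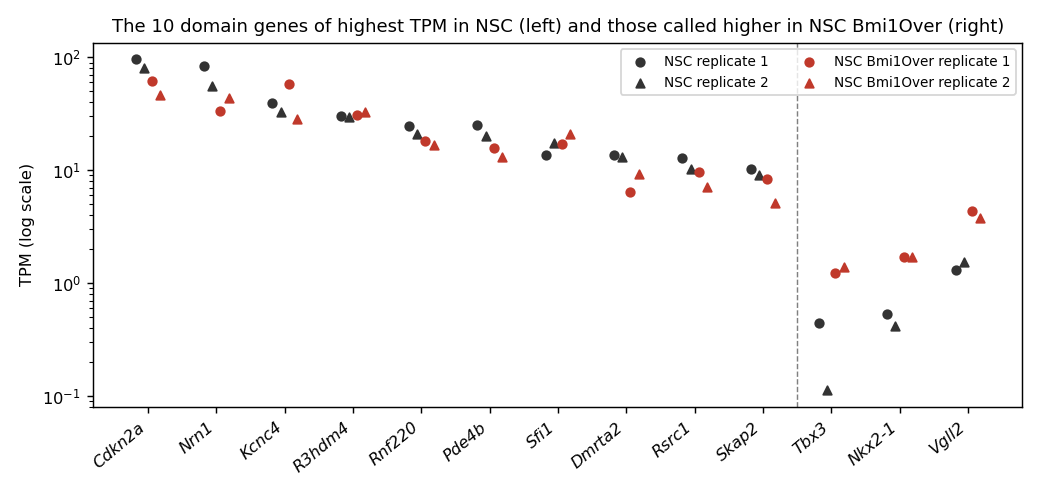
TPM (y axis, log scale) in each RNASeq library for the 10 domain genes of highest mean level in NSC, left of the dashed line, and the genes called higher in NSC Bmi1Over, right of it. Points are single cultures, and Tbx3, Nkx2-1 and Vgll2 lie below 2 TPM in NSC.

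Efna5, the ephrin ligand in a domain, was at 1.42 and 1.15 TPM in NSC and at 2.26 and 2.59 TPM in NSC Bmi1Over, with a log2 fold change of 1.17 ± 0.28 (SE, n = 2 per group) that did not pass the test (adjusted p = 0.0648 in edgeR). No Hox or GATA gene had enough reads to be tested. Of the genes in domains that encode Pax, LIM homeobox, Forkhead and bHLH factors, 1, 2, 2 and 4 were tested, too few for the absence of a call to be read. The called Nkx2-1 was 1 of 2 tested NK homeobox genes and Tbx3 1 of 3 tested T-box genes. These families are named because they held a call. Their tested genes are too few to be set against the 2.03% of all genes tested.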

How the data were processed

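The regions were the autosomal peaks of the control NSC list with an end minus start of at least 4000 bp. Per the labels and the study's methods, the authors prepared ChIPSeq reads by trimming in Trim Galore and alignment in Bowtie2 2.3.4 (mm10), discarded multi-mapped reads and called broad peaks with MACS2 on 1 library per condition, at a minimum fold of 2 and a false discovery rate of 0.05. The deposited lists give a fold enrichment (a ratio) and the −log10 of p and q per peak, and the deposited display score went unused. For RNASeq the authors aligned the reads with STAR, and the deposited counts per gene are not normalised. The unstranded counts were used, as the strand totals were nearly equal, and unmapped, multi-mapped and unassigned reads (65.9 to 72.2% of reads were counted on genes) stayed out of library sizes.

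Counts were normalised by TMM and tested with edgeR 4.0.16 in R 4.3.3 (quasi-likelihood, Benjamini-Hochberg, no replicate term), as in the study's methods. The filter on low counts, filterByExpr, was chosen here, and the study's quality and biotype filtering was not applied. DESeq2 1.42.0 was an alternative. The SE was derived from the fold change and the F statistic. TPM were computed from union exon lengths in GENCODE vM21, with 50462 of 50686 gene identifiers matched. A gene was assigned to a domain by any annotated TSS. The 12 genes with starts in more than 1 domain were described by the widest, and counted in each for family values. Composition was read from RefSeq GRCm38.p6, the build of the files, in Python 3.11.15. The scripts were tested on simulated data.

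The domains, gene families and markers were chosen with earlier results of these data known. The domains and genes named were the 10 widest, the 5 of highest and of lowest fold, the 5 most covered, the 3 on either side of the limit, 3 members per family with at least 3 genes in domains, the 10 genes of highest level, the called genes and the 5 widest domains with no coding TSS. A few genes and domains that this rule names are not reported here. Alternatives were other width limits, joined peaks, stricter q, fold and length limits, other TSS windows and island rules, other normalisations, filters and tests, the replicate number as a block and leaving out each library. Leaving out the 2 domains of fold over 20 and the central 4000 bp were added after the data were seen. The labels do not tie replicates to separate animals, so p-values measure the spread between these cultures. The mGIC samples were not analysed here.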

Additional observations from a re-analysis of the deposited data

How the results depend on the processing

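The lists of 1 library per condition have no replicate check, and their unknown depth limits what a missing peak means. With width limits of 3000 and 5000 bp there were 556 and 337 domains with median coverages of 54.3% and 65.8%. Joining NSC peaks over gaps of 1000 bp gave 695 domains, a median coverage of 29.8% and a share with an NSC Bmi1Over peak of 93.8%. The joined domains held a TSS of 432 coding genes, of which 7 were called higher, beside 2.03% of all genes tested. How many of the 432 were tested is not at hand, so the 7 are not read as a share. The median coverage was 54.0% for NSC Bmi1Over peaks with a −log10 q of at least 3, 54.6% for those of at least 500 bp, 83.8% when they were joined and 67.5% over all bases together. The share of domains with a peak was 97.1% at a −log10 q of at least 3 and 98.6% with an overlap of 10% of the domain. The share with a CpG island was 76.6% by the stricter rule and 82.4% in the central 4000 bp. The number of coding genes stayed within 1.5 times of 295 in all 7 alternatives.

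The median TPM of domain genes, 0.0219 as the mean of the NSC libraries, was 0 in each library alone, 0.0170 as CPM, 0.0325, 0.0136 and 0.0466 with limits of 3000 and 5000 bp and with joined peaks, 0.0263 with TSS within 1000 bp and 0.0211 without the 2 domains of fold over 20.

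Of all genes, 334 were called. DESeq2 called 1496, of which 5 domain genes were higher. DESeq2 gave no adjusted p for Nkx2-1. Scaling by library size alone called 537, with a median log2 fold change of domain genes of 0.10. Keeping all genes with a count called 2356, with 13 domain genes higher and 4 lower. Leaving out 1 library at a time called 176 to 2546 genes, 2 to 7 domain genes higher and 0 to 3 lower, with medians of 0.17 to 0.47. With the replicate number as a block, 3459 genes were called, and the median log2 fold change of domain genes was 0.25. Among domain genes 13 were called higher and 4 lower. The share of all genes called in each direction is not at hand for this fit, so these counts are not read. With the block Cdkn2a was called lower (-0.48, adjusted p = 0.0113 in edgeR), as it was with all genes with a count (-0.50, adjusted p = 0.0308 in edgeR). The labels give no pairing beyond the number, and same-numbered libraries deviated together with r = 0.169 across 15521 genes. The cause of these moves was not tested.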
